A study of Mus musculus with 17 samples.

Results

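The 10 genes described here make, process and package peptide hormones: the prohormone convertases Pcsk1 and Pcsk2, the convertase inhibitor Pcsk1n, the trimming enzyme Cpe, the granins Chga, Chgb, Scg2, Scg3 and Scg5, and the peptide precursor Calcb. They were chosen by their measured levels in these same libraries, as genes whose levels differ between the groups of samples, and named one by one with no threshold. Their levels across the groups are therefore given as a description, without a test. All 10 were found among the 50600 gene IDs of each library, and all 10 were among the 21494 genes kept by a filter on low counts. A gene that is high in some of the groups passes such a filter for that reason.

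Messenger RNA was measured in 17 libraries of C57BL/6J mice, from 14 separate tumors and 3 healthy brains. The healthy brains (n = 3) were wild type, and every tumor carried the genotype SMARCB1 -/-, and loss of SMARCB1, a part of the SWI/SNF remodeller, is the hallmark of rhabdoid tumors. The central nervous system (CNS) tumors fell into an SHH group of 3 and a Myc group of 4, named for these pathways. A further 4 tumors arose outside the skull (extracranial), and 3 were syngeneic grafts, a tumor placed in the flank of a host mouse. Libraries carry the numbers of their labels. Treatment, age, the way the gene was deleted, the site of each extracranial tumor and the parent tumors of the grafts are not stated in the labels.

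Peptide hormones and neuropeptides are made as long precursors and cut inside dense-core granules, where convertases cleave after pairs of basic residues and carboxypeptidase E removes the basic residues left behind. Granins are acidic proteins that condense in these granules, and small proteins such as those of Pcsk1n and Scg5 bind the convertases and hold or steer their activity. In the adult brain this machinery is found in neurons, and in other organs in endocrine cells such as those of the pituitary, the adrenal medulla and the islets.

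The stretches just before the starts of Pcsk1n, Pcsk1, Chga, Chgb and Scg2 are shown because these genes did not share 1 pattern over the groups. The windows are those of RefSeq on GRCm38.p6, 250 bases before to 50 after a start, and 8 of the 10 genes had one. Cpe and Calcb were the other two. Each line reads 5′ to 3′ on the strand of the gene. Capitals mark TGACGTCA, the binding palindrome of the cAMP response element (CRE), or its core TGACG.
Pcsk1n: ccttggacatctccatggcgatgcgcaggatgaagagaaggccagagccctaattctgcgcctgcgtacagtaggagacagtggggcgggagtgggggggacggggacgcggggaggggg
Pcsk1: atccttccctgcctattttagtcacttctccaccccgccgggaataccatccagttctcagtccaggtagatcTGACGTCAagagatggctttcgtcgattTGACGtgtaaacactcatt
Chga: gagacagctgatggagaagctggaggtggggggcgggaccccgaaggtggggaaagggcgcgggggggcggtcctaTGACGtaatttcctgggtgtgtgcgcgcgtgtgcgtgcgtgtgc
Chgb: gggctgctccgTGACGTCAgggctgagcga
Scg2: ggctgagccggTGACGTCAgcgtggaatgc
They lie at chrX:7919702-7919821, chr13:75089706-75089825, chr12:102554821-102554940, chr2:132781559-132781588 and chr1:79440076-79440105 on GRCm38.p6, with Scg2 on the minus strand and the others on the plus strand. The stretches of Pcsk1n, Pcsk1 and Chga held no annotated exon, and those of Chgb and Scg2 lay within an exon of the GENCODE vM21 annotation.

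The palindrome TGACGTCA was found in the windows of Pcsk1, Chgb and Scg2, with its first base 78, 72 and 68 bases before the RefSeq start, and in 1.79% of the 32851 windows of all genes, counting both strands. The core TGACG, which is part of the palindrome, was found in the windows of 7 of the 8 genes and in 20.8% of all windows. Pcsk1n was the gene without it. The left part TTCAGCACC and the right part GGACAG of the site of the repressor Rest occurred in 0.371% and 22.2% of all windows, and among the 8 genes only Scg2 held either of them. It held both. A match of letters describes the window and is not a measurement of binding.

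The brain libraries held 103095016 to 130835711 counts and the tumor libraries 18685672 to 114338058. Levels are CPM, counts scaled to a common library size with TMM factors, group values are means ± SD between libraries, and a log2 difference is that of the edgeR fit over all 17 libraries ± SE. Smarcb1 fell in each tumor group against brain and ranged from 119 to 132 CPM in brain and from 2.52 to 33.25 CPM in the tumors (edgeR adjusted p 0.000532 for Myc, 0.00148 for extracranial, 0.0277 for SHH and 0.0186 for graft tumors). These counts cannot tell intact from deleted transcripts. The SHH call ended at adjusted p 0.0601, 0.0807, 0.0897 and 0.119 without Healthy brain 1, 2 or 3 or SHH CNS tumor 3, and the graft call at adjusted p 0.0606 without Syngeneic graft 3. Transcripts of the anterior pituitary stood apart in Healthy brain 1, with a sum of 1383 CPM over 10 markers and 1215 CPM of growth hormone (Gh), and in Myc CNS tumor 1, with a sum of 193.9 CPM. The sum was 0.374 to 4.85 CPM in the other 15 libraries. With both of these libraries left out, the log2 difference of every member moved by less than its spread in each of the 7 comparisons they enter. The spread is the root mean square of a gene's SDs of log2 CPM within the groups. It is wide for some members, with SDs for Pcsk1 of 3.46 in Myc and 4.71 in extracranial tumors. Shifts of several-fold can therefore pass, and an effect of these libraries on the members is not excluded.

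Pcsk1, the convertase that makes the first cuts in many precursors (ENSMUSG00000021587.4, chr13:75089826-75134861, plus strand, GRCm38), was low in brain. It was scattered over more than 1 order of magnitude in the Myc, extracranial and graft tumors. It stood at 8.50, 4.91 and 4.26 CPM in Healthy brain 1 to 3 and at 8.22, 5.95 and 5.89 CPM in SHH CNS tumor 1 to 3. The Myc CNS tumors 1 to 4 held 228, 2.45, 258.5 and 6.65 CPM, so that 2 of the 4 lay far above every brain and 1 lay below all of them. The extracranial tumors 1 to 4 held 0.0488, 24.5, 0.358 and 74.3 CPM, and the grafts 1 to 3 held 10.6, 4.29 and 0.219 CPM. The groups overlapped in every comparison. The log2 difference from brain was 4.39 ± 2.01 for Myc tumors, 2.07 ± 1.79 for extracranial tumors, -0.23 ± 1.79 for grafts and 0.18 ± 1.79 for SHH tumors.

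Pcsk2, the convertase that acts later in the granule (ENSMUSG00000027419.9, chr2:143546156-143816285, plus strand), was high in brain and SHH tumors and low in all other tumors. It stood at 75.9, 76.6 and 119 CPM in the 3 brains and at 309, 54.25 and 15.9 CPM in SHH CNS tumor 1 to 3. The Myc tumors 1 to 4 held 2.24, 0.365, 0.681 and 2.62 CPM and the extracranial tumors 1 to 4 held 0.0976, 1.85, 4.68 and 2.11 CPM. The grafts had the lowest mean, with 0.0281, 0.147 and 0.104 CPM from 1, 8 and 10 counts, and extracranial tumor 1, with 2 counts, lay below 2 of these 3. The log2 difference from brain was -5.93 ± 1.12 in Myc, -5.36 ± 1.09 in extracranial and -9.82 ± 1.53 in graft tumors, with no overlap of libraries. In SHH tumors it was 0.48 ± 1.03 with overlap, and without SHH CNS tumor 1 it was -1.37. Fewer cells of a type and less RNA per cell cannot be told apart in these bulk samples, here and for every gene below.

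Per kilobase of exon the ratio of Pcsk1 to Pcsk2 was 0.0505 to 0.158 in brain and 0.0376 to 0.523 in SHH tumors. It was 144, 9.48, 536 and 3.59 in Myc CNS tumors 1 to 4. All 4 Myc tumors thus held more Pcsk1 than Pcsk2 per kilobase, against none of the brains and SHH tumors. The ratio was 18.7 and 49.7 in extracranial tumors 2 and 4 and 0.108 in extracranial tumor 3, the last from 12 counts of Pcsk1 and 157 of Pcsk2. Extracranial tumor 1 had 1 count of Pcsk1 and 2 of Pcsk2, too few to place it. Among the grafts the ratio was 41.1 in graft 2 and 2.96 in graft 3, from 8 and 10 counts of Pcsk2, and graft 1 had 378 counts of Pcsk1 beside 1 of Pcsk2.

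**Figure D1:**
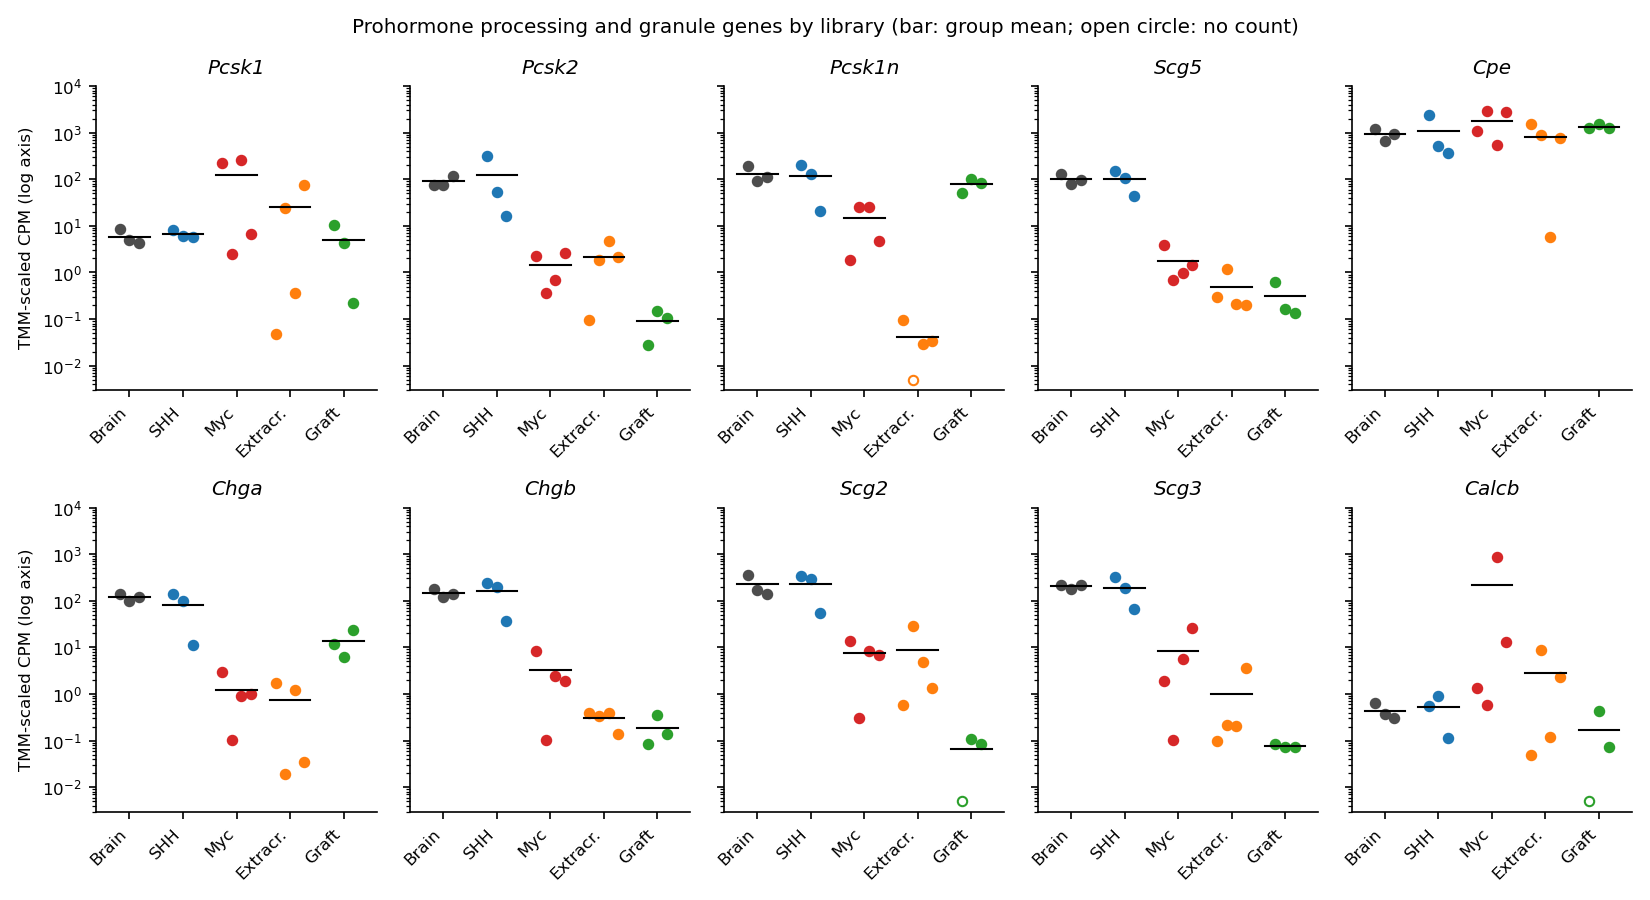
TMM-scaled CPM (log axis) of the 10 genes in each of the 17 libraries by group, with a bar at the group mean and open circles at the foot of a panel for libraries without a count. Pcsk2, Scg5, Chgb, Scg2 and Scg3 were low in every Myc, extracranial and graft tumor, Pcsk1n was low in the extracranial tumors but not in the grafts, and Cpe was high in 16 of the 17 libraries.

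Pcsk1n encodes proSAAS, an inhibitor of the Pcsk1 enzyme that is itself cut into peptides (ENSMUSG00000039278.10, chrX:7919822-7924410, plus strand). It separated the tumors outside the brain: the grafts held it near the level of brain, and the extracranial tumors held almost none. Brain 1 to 3 stood at 189.6, 91.3 and 110.5 CPM and SHH CNS tumor 1 to 3 at 199.5, 130.5 and 20.7 CPM. The Myc CNS tumors 1 to 4 held 1.86, 25.5, 25.4 and 4.80 CPM, each below every brain. The extracranial tumors 1 to 4 held 2, 0, 1 and 1 counts, or 0.0976, 0, 0.0298 and 0.0340 CPM, where 3 counts would be 0.0584 to 0.146 CPM. The grafts 1 to 3 held 49.6, 102.7 and 81.1 CPM. Every graft lay above every Myc tumor and every Myc tumor above every extracranial tumor, and the grafts overlapped with brain.

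The log2 difference of Pcsk1n from brain was -3.18 ± 0.84 in Myc, -11.92 ± 1.29 in extracranial, -0.75 ± 0.87 in graft and -0.16 ± 0.86 in SHH tumors. Between tumors it was -8.74 ± 1.19 for extracranial against Myc tumors, 2.43 ± 0.82 for grafts against Myc tumors and 11.18 ± 1.27 for grafts against extracranial tumors. The values for extracranial tumors rest on 4 counts in all. The sum of 12 neuronal marker genes was 194 to 1003 CPM in grafts, 62.2 to 966 CPM in extracranial tumors and 4654 to 5042 CPM in brain.

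The balance of inhibitor and enzyme differed between single tumors. Per kilobase of exon, Pcsk1n was 47.5 to 66.2 times Pcsk1 in the 3 brains and 8.998 to 62.03 times in the SHH tumors. In Myc CNS tumors 1 to 4 the ratio was 0.0208, 26.6, 0.251 and 1.84, so the 2 tumors with high Pcsk1 were those with less inhibitor than enzyme transcript. Extracranial tumors 2 and 4 had 0 and 1 counts of Pcsk1n beside 1257 and 2185 counts of Pcsk1. Extracranial tumors 1 and 3 had 2 and 1 counts of Pcsk1n beside 1 and 12 of Pcsk1, too few for a ratio. In the grafts it was 11.9, 61.1 and 945.

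**Figure D2:**
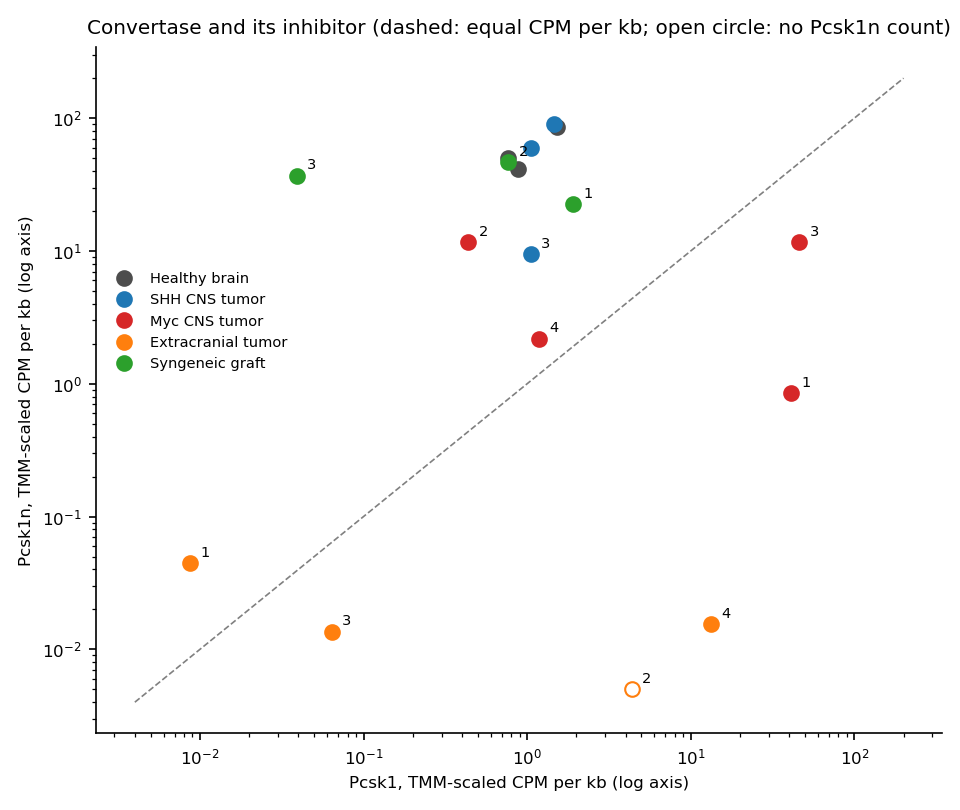
Pcsk1n against Pcsk1 in each library, in TMM-scaled CPM per kilobase of exon on log axes, with a dashed line of equal levels; the open circle, set at the foot, is extracranial tumor 2, which had no Pcsk1n count. Numbers give the library within its group (left off for the brains and for SHH CNS tumor 1 and 2). Brain, SHH and graft libraries lie above the line, and Myc CNS tumors 1 and 3 and extracranial tumors 2, 3 and 4 lie below it. The points of the extracranial tumors rest on 0 to 2 counts of Pcsk1n.

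Scg5 encodes 7B2, the chaperone that Pcsk2 needs to mature (ENSMUSG00000023236.7, chr2:113776362-113829121, minus strand), and it was low wherever Pcsk2 was low. Scg5 stood at 129, 79.6 and 96.6 CPM in the brains and at 150.1, 105.7 and 44.3 CPM in SHH CNS tumor 1 to 3. The Myc tumors 1 to 4 held 3.94, 0.678, 0.986 and 1.45 CPM. The extracranial tumors held 0.293, 1.21, 0.209 and 0.204 CPM and the grafts 0.619, 0.166 and 0.136 CPM. All 11 of these tumors lay below all brains and all SHH tumors. The log2 difference from brain was -5.87 ± 0.82 in Myc, -7.67 ± 0.89 in extracranial (-8.78 without extracranial tumor 2), -8.43 ± 1.05 in graft (-9.41 without Syngeneic graft 1) and -0.02 ± 0.75 in SHH tumors.

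Cpe, carboxypeptidase E, was the member with the highest level per kilobase in each of the 5 groups (ENSMUSG00000037852.8, chr8:64592542-64693054, minus strand). It stood at 1213, 647 and 946 CPM in the brains, and SHH CNS tumor 1 to 3 held 2401, 512 and 367 CPM. The Myc tumors 1 to 4 held 1088, 2856, 540 and 2760.0 CPM, and the grafts 1268, 1517 and 1228 CPM. The extracranial tumors 1, 2 and 4 held 1535, 899 and 761 CPM, whereas extracranial tumor 3 held 5.76 CPM from 193 counts. Cpe thus kept the order of magnitude of brain in 13 of the 14 tumors. The log2 difference from brain was 0.95 ± 1.06 in Myc, -0.22 ± 1.03 in extracranial, 0.52 ± 1.11 in graft and 0.22 ± 1.10 in SHH tumors, and only the grafts lay wholly above brain.

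The granins Chgb, Scg2 and Scg3 followed Pcsk2 and Scg5, whereas Chga in the grafts lay between the brains and the Myc and extracranial tumors. Chga, chromogranin A, a protein of most endocrine granules (ENSMUSG00000021194.5, chr12:102554969-102565028, plus strand), stood at 140, 96.6 and 120.2 CPM in brain and at 137, 100.5 and 11.04 CPM in SHH CNS tumor 1 to 3. The Myc tumors 1 to 4 held 2.90, 0.104, 0.917 and 1.001 CPM and the extracranial tumors 1.71, 0.0195, 1.19 and 0.0340 CPM. The grafts held 11.98, 6.27 and 23.7 CPM, above every Myc and every extracranial tumor and below every brain. SHH CNS tumor 3 lay within the range of the grafts. The log2 difference of grafts was 3.53 ± 1.16 against Myc, 4.29 ± 1.21 against extracranial tumors and -3.09 ± 1.26 against brain. The difference from brain was -6.61 ± 1.31 in Myc, -7.38 ± 1.36 in extracranial and -0.52 ± 1.16 in SHH tumors.

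Chgb, chromogranin B (ENSMUSG00000027350.8, chr2:132781278-132795079, plus strand), did not share that level in the grafts. Chgb stood at 178, 120.5 and 143 CPM in brain and at 238, 199 and 36.9 CPM in SHH CNS tumor 1 to 3. The Myc tumors held 8.31, 0.104, 2.47 and 1.94 CPM, the extracranial tumors 0.390, 0.331, 0.388 and 0.136 CPM, and the grafts 0.0844, 0.350 and 0.136 CPM from 3, 19 and 13 counts. Per kilobase the ratio of Chga to Chgb was 0.782 to 0.838 in brain and 0.298 to 0.572 in SHH tumors. It was 0.347, 0.369 and 0.512 in Myc CNS tumors 1, 3 and 4, and Myc CNS tumor 2 had 2 counts of each gene. It was 17.8 and 174 in grafts 2 and 3, and graft 1 had 426 counts of Chga beside 3 of Chgb. Extracranial tumors 1 and 3 had 35 and 40 counts of Chga beside 8 and 13 of Chgb, or ratios of 4.35 and 3.06. Extracranial tumors 2 and 4 had 1 count of Chga each beside 17 and 4 of Chgb.

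Scg2, secretogranin II, the precursor of secretoneurin (ENSMUSG00000050711.7, chr1:79434669-79440120, minus strand), was among the highest members in brain and the 9th of 10 per kilobase in grafts. Scg2 stood at 365, 173 and 140.1 CPM in brain and at 337, 296 and 54.95 CPM in SHH CNS tumor 1 to 3. The Myc tumors held 13.9, 0.313, 8.56 and 6.95 CPM and the extracranial tumors 0.585, 28.8, 4.74 and 1.33 CPM. The grafts held 0, 6 and 8 counts, or 0, 0.111 and 0.0835 CPM. Every Myc, extracranial and graft library lay below every brain, and extracranial tumor 2 with its 28.8 CPM came nearest. The log2 difference from brain was -4.92 ± 1.27 in Myc, -4.66 ± 1.25 in extracranial (-6.67 without extracranial tumor 2), -11.59 ± 1.95 in graft and 0.02 ± 1.21 in SHH tumors.

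Scg3, secretogranin III, which tethers other granins to the granule membrane (ENSMUSG00000032181.7, chr9:75643189-75684056, minus strand), had the widest spread of the granins among Myc tumors. Scg3 stood at 223, 182 and 216 CPM in brain and at 315, 185.6 and 67.1 CPM in SHH CNS tumor 1 to 3. The Myc tumors held 1.91, 0.104, 5.53 and 26.04 CPM, the extracranial tumors 0.0976, 0.214, 0.209 and 3.535 CPM, and the grafts 0.0844, 0.0737 and 0.0731 CPM from 3, 4 and 7 counts. The highest of the 11 tumors, Myc CNS tumor 4, was below the lowest SHH tumor. The log2 difference from brain was -4.61 ± 1.31 in Myc, -7.67 ± 1.5 in extracranial (-10.15 without extracranial tumor 4), -11.37 ± 2.02 in graft and -0.13 ± 1.27 in SHH tumors.

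Summed over Chga, Chgb, Scg2, Scg3 and Scg5, the granins reached 1034, 651 and 715 CPM in brain and 1178, 886 and 214 CPM in SHH CNS tumor 1 to 3. The sum was 31.0, 1.30, 18.45 and 37.4 CPM in the Myc tumors, 3.07, 30.55, 6.74 and 5.23 CPM in the extracranial tumors and 12.8, 6.97 and 24.15 CPM in the grafts. The sum of 12 neuronal markers was 4654 to 5042 CPM in brain with all 12 genes above 1 CPM, and 4475, 2119 and 485 CPM in SHH CNS tumor 1 to 3. The SHH tumor with the lowest granins was also the one with the lowest neuronal markers. In the Myc tumors the marker sum was 743, 111, 2434 and 703 CPM, with 6 to 11 of the 12 genes above 1 CPM. Myc CNS tumor 3, at 2434 CPM, held more of these markers than SHH CNS tumor 2 and had 18.45 CPM of granins against 886. In that Myc tumor 9 of the 12 markers were above 1 CPM and each had a count. Nefl, a neurofilament gene, made up 1601 CPM of the 2434 CPM. Rbfox3, a nuclear protein of mature neurons, stood at 0.733 CPM there and at 85.9 to 113.5 CPM in brain. What part the share of neurons has in the granin levels was not tested.

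**Figure D3:**
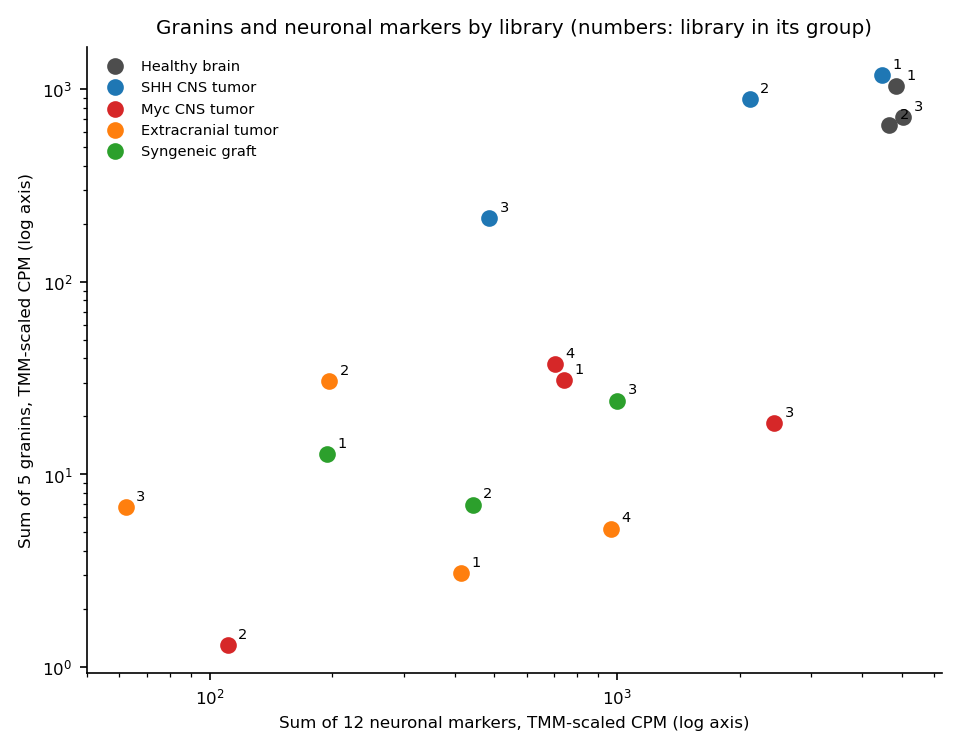
Sum of the 5 granins against the sum of 12 neuronal markers in each library, both in TMM-scaled CPM on log axes, with the library number within its group. The brains and SHH tumors lie at 214 CPM of granins or more, and the other 11 tumors at 37.4 CPM or less, over a range of neuronal markers from 62.2 to 2434 CPM.

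Calcb, the precursor of beta-CGRP, a vasodilator peptide of sensory neurons (ENSMUSG00000030666.11, chr7:114718643-114723365, plus strand), was close to silent in most libraries and very high in 1. It stood at 0.635, 0.369 and 0.302 CPM in brain and at 0.541, 0.893 and 0.113 CPM in SHH CNS tumor 1 to 3. The Myc tumors 1 to 4 held 1.37, 0.574, 869.5 and 12.9 CPM, the extracranial tumors 0.0488, 8.84, 0.119 and 2.28 CPM, and the grafts 0, 0.424 and 0.0731 CPM. The groups overlapped in every comparison except grafts against Myc tumors, in which every graft was lower. The log2 difference of Myc tumors from brain, 8.98 ± 2.74, rests on Myc CNS tumor 3 and was 3.54 without it. For extracranial against Myc tumors it was -6.27 ± 2.12, and -0.82 without Myc CNS tumor 3. Within the last series of file numbers, which holds Myc CNS tumors 1 and 2 and the extracranial tumors, it turned to 1.52. Calca, the neighbouring gene of alpha-CGRP and calcitonin, had 1039 CPM in Myc CNS tumor 3. Both genes are similar in sequence and the handling of shared reads was not stated in the labels. The split between the genes is uncertain.

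The same tumor held 2 other peptide precursors at levels far from its group. Grp, gastrin-releasing peptide, stood at 1207 CPM in it and at 0.1495 to 25.9 CPM in the other Myc tumors, and Gcg, the precursor of glucagon, stood at 55.1 CPM against 0 to 0.939 CPM. Both were singled out after their values were seen. Of the 8 sensory neuron markers, 3 were above 1 CPM there and 1 had no count. They summed to 1060 CPM, of which Calca held 1039 CPM, and Prph stood at 0.768 CPM. What part another cell type has in these levels was not tested.

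Per kilobase of exon, the order of the members differed between the groups. In brain Cpe led with 358 ± 108.5 CPM per kb, followed by Scg2 with 89.8 ± 48.4, Scg3 with 75.5 ± 8.03 and Scg5 with 64.8 ± 15.9. Pcsk1n, Chgb and Chga came next with 59.5 ± 23.8, 53.65 ± 10.6 and 43.1 ± 7.86, and each pair of neighbours from Scg2 to Chga differed by less than the larger of their SDs. Pcsk2 followed with 11.45 ± 3.13, then Pcsk1 with 1.05 ± 0.407 and Calcb with 0.3445 ± 0.139. In SHH tumors the order was the same except that Chgb, with 57.7 ± 39.0, came before Pcsk1n, with 53.3 ± 41.1. In grafts Cpe, with 513 ± 60.1 CPM per kb, was followed by Pcsk1n with 35.5 ± 12.2 and Chga with 5.08 ± 3.23, and every other member was below 1 on average. In Myc tumors Calcb and Pcsk1 came after Cpe with 175 ± 342 and 22.1 ± 24.7, spreads as large as the means. In extracranial tumors Pcsk1n was the last with 0.0184 ± 0.0187 CPM per kb.

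The members also differed in how alike they were over the 17 libraries, measured as the root mean square difference of log2 CPM after each gene's mean was removed. Chgb and Scg5 were the closest pair at 1.14, and the 10 closest pairs all lay among Pcsk2, Chgb, Scg2, Scg3 and Scg5, at up to 2.17. Outside this set the closest pairs were Pcsk1 with Calcb at 2.61 and Pcsk1n with Chga at 2.76. The farthest pair was Chga and Calcb at 5.91. These are descriptions over libraries that share a group, not tests.

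Spread within a group was wide for most members in the Myc and extracranial tumors. The folds given next are those of log2 CPM with a prior count of 2, which understates the folds of genes with few counts. Between the highest and the lowest Myc tumor, Calcb differed 1440-fold, Scg3 191-fold and Pcsk1 104-fold, where the median gene differed 2.64-fold. Among extracranial tumors Pcsk1 differed 920-fold and Cpe 265-fold, against 2.73-fold for the median gene. In brain no member differed by more than the 2.61-fold of Scg2. The grafts differed 1.24-fold for Cpe and 42.4-fold for Pcsk1, against 1.41-fold for the median gene, which differed 1.49-fold in brain. Whether the grafts share a parent tumor is not stated in the labels, and the tests treat them as independent.

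Counted over the members, 7 of 10 were lower in Myc tumors than in brain with no overlap of libraries and none was higher, where 30.7% of all genes tested were lower and 25.2% higher in that way. Against brain, 7 of 10 were lower in extracranial tumors (29.6% of all genes) and none higher (24.8%), and 6 of 10 were lower in grafts (40.5%) and 1 higher (34.5%). In SHH tumors none of the 10 was set apart from brain, where 20.7% of all genes were lower and 15.7% higher. Since the members were chosen for these patterns, the counts are given beside the background and nothing is read from them. These 4 comparisons share the same 3 brain libraries. The median log2 difference of the 10 members was -4.77 in Myc, -6.37 in extracranial, -5.76 in graft and 0.06 in SHH tumors, where the median of all genes was -0.01, 0.05, -0.16 and -0.02.

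Between tumor groups, 6 of the 10 members were lower in Myc than in SHH tumors without overlap (23.1% of all genes) and none was higher (19.8%). Pcsk1n was the only member lower in extracranial than in Myc tumors (2.2% of all genes), and none was higher (2.24%). In grafts 5 members were lower than in Myc tumors (11.1%) and 2, Pcsk1n and Chga, were higher (14.1%). Against extracranial tumors 2 members, Scg2 and Scg3, were lower in grafts (10.3%), and the same 2, Pcsk1n and Chga, were higher (11.9%).

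The genes whose pattern was nearest to that of Pcsk1n over the 17 libraries were Sall1, a zinc finger factor, with a root mean square difference of 1.35, Rgs7 with 2.12, the homeobox gene Vax1 with 2.12, Inpp5j with 2.24 and Bex1 with 2.37. The median over all genes was 4.44. Sall1 averaged 30.7 CPM in brain, 24.0 in SHH, 3.04 in Myc, 0.0426 in extracranial and 6.42 in graft tumors. Nearest to Calcb were Calca with 1.21, the growth factor gene Fgf7 with 1.80, Fibin with 1.83, Crisp1 with 2.20 and Gata6 with 2.28, where the median was 3.47. Fgf7 averaged 74.7 CPM in Myc tumors and 0.239 to 4.31 CPM in the other groups.

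The other genes of the pathway, 121 tested genes of 5 lists that hold none of the members, were tested with the edgeR quasi-likelihood test with Benjamini-Hochberg adjustment over all 21494 genes. The lists were chosen with earlier results of these data known. Their counts, shares and p-values, here and in the paragraphs on each list, are therefore not independent of that choice and are a description. Against brain, 21 rose and 47 fell in Myc tumors, where 25.3% of all genes rose and 26.8% fell (52.2% in all). In extracranial tumors 18 rose and 48 fell, beside 26.1% of all genes in each direction. In grafts 9 rose and 58 fell, beside 24.9% and 30.4% (55.3% in all). In SHH tumors 1 rose and 3 fell, beside 2.44% and 1.94% (4.37% in all). Between Myc and SHH tumors 21 were higher and 36 lower in Myc tumors, beside 19.0% and 21.9% (40.9% in all). The pathway genes that rose were 17.4% of those tested in Myc, 14.9% in extracranial and 7.44% in graft tumors, and those that fell were 38.8%, 39.7% and 47.9%. The numbers that rose depended on single libraries. In Myc tumors 13 rose without Healthy brain 2 and 12 without Healthy brain 3, and in extracranial tumors 11 rose without Healthy brain 3. Between Myc and SHH tumors 13 were higher in Myc tumors without SHH CNS tumor 2 and 11 without SHH CNS tumor 3. Those that fell in SHH tumors included Stx1a and Rab3d. The call of Rab3d (edgeR adjusted p = 0.0371) ended when any 1 library was left out (adjusted p = 0.0535 to 0.148), and the count of pathway genes called in SHH tumors was 2 without Healthy brain 1, 2 or 3 or SHH CNS tumor 2 or 3, and 5 without SHH CNS tumor 1.

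**Figure D4:**
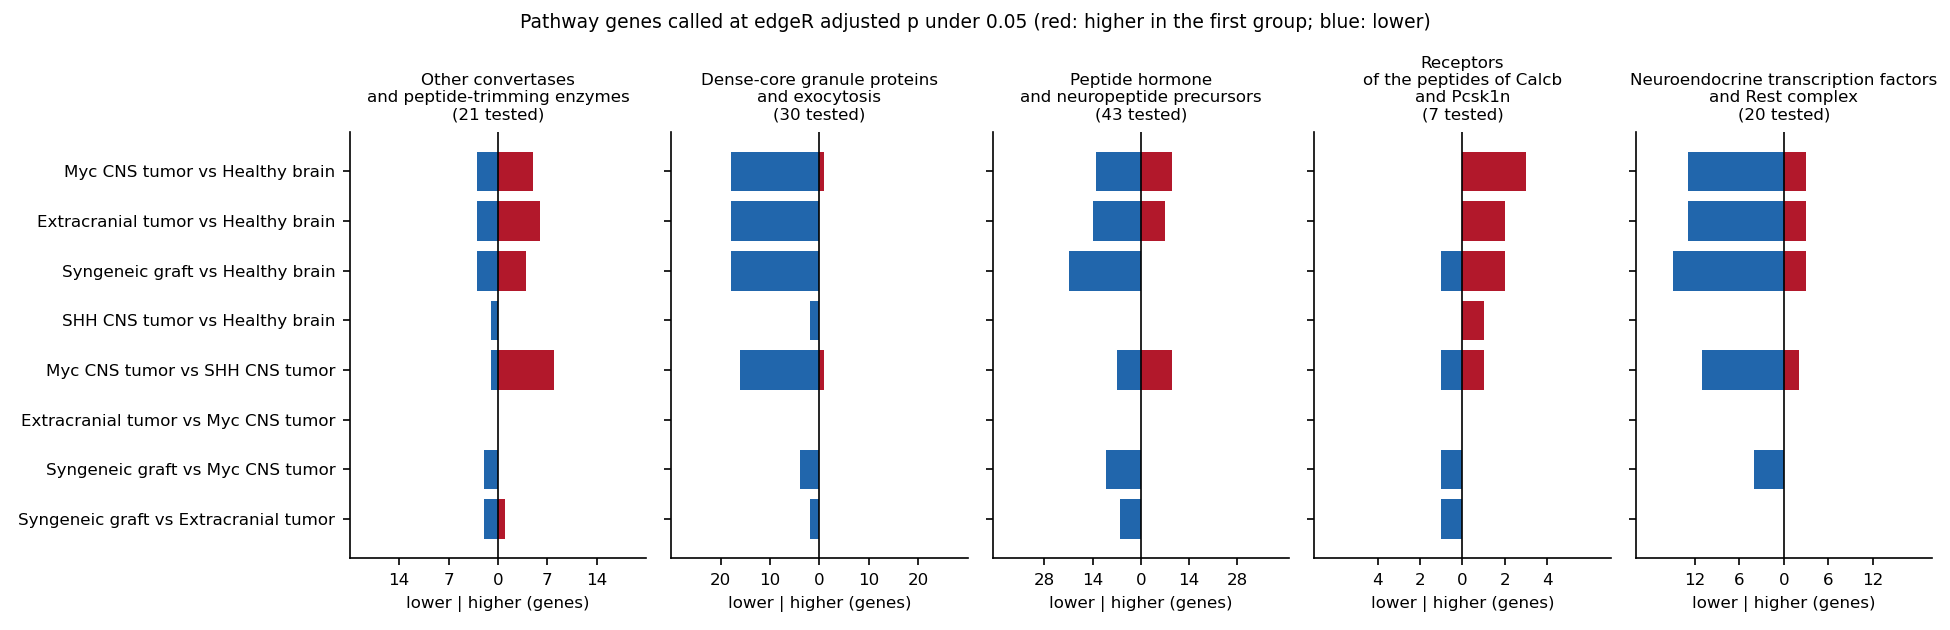
Number of genes of each of 5 pathway lists called higher (red, right) or lower (blue, left) in the first group of each of the 8 comparisons, at an edgeR adjusted p under 0.05. Each panel's axis spans the number of genes tested, from 7 to 43, and the dense-core granule list has 18 genes lower than brain in each of the Myc, extracranial and graft tumors.

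Of 21 other convertases and peptide-trimming enzymes, 5 rose and 3 fell in Myc tumors against brain, 6 rose and 3 fell in extracranial tumors, and 4 rose and 3 fell in grafts. The shares of all genes were 25.3%, 26.1% and 24.9% that rose and 26.8%, 26.1% and 30.4% that fell. The list's median log2 difference was 0.28, 0.52 and -0.09, beside -0.01, 0.05 and -0.16 for all genes. Furin, the convertase of the constitutive secretory route, stood at 35.0 to 64.7 CPM in brain. Its Myc libraries ranged from 335 to 1016 CPM, the extracranial ones from 184.5 to 594 CPM and the graft ones from 146 to 163 CPM. Furin rose by a log2 difference of 3.80 ± 0.47 in Myc (edgeR adjusted p = 2.9e-05), 2.93 ± 0.45 in extracranial (adjusted p = 0.000134) and 1.73 ± 0.44 in graft tumors (adjusted p = 0.0045), with no overlap. It was also higher in Myc than in SHH tumors, by 3.38 ± 0.46 (edgeR adjusted p = 0.000143), and in SHH tumors against brain it was 0.42 ± 0.43 (adjusted p = 0.606).

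The cathepsins rose as well. Ctsh, an aminopeptidase that also trims neuropeptides, averaged 11.1 ± 5.58 CPM in brain, 149.7 ± 42.0 in Myc, 131 ± 49.6 in extracranial and 315 ± 9.10 in graft tumors (edgeR adjusted p = 1.3e-05, 1.5e-05 and 3e-06). Ctsb reached 4114 ± 258 CPM in grafts against 268 ± 73.5 in brain. The sum of 8 macrophage markers was 55.1 to 89.3 CPM in brain and 350 to 525 CPM in SHH tumors. It was 1579 to 5085 CPM in Myc, 2669 to 8289 CPM in extracranial and 6263 to 9961 CPM in graft tumors. What part macrophages have in the level of the cathepsins was not tested. Pcsk5 fell to 3.04 ± 2.46 CPM in Myc, 2.39 ± 1.17 in extracranial and 0.499 ± 0.152 in graft tumors from 22.2 ± 2.06 in brain (edgeR adjusted p = 0.00392, 0.00199 and 0.000188). Pam, the enzyme that amidates peptide ends, averaged 107 ± 18.5 CPM in brain, 212 ± 189 in Myc, 324 ± 360.1 in extracranial and 38.5 ± 7.37 in graft tumors, and none of these differences was called (edgeR adjusted p = 0.316, 0.116 and 0.157). The grafts, at 32.4 to 46.65 CPM, all lay below the brains, at 91.9 to 127.5 CPM, and their difference was called with limma voom (adjusted p = 0.00791) and with a fit of the compared groups only (adjusted p = 0.000662). Without extracranial tumor 1, which had 55.6 CPM, the extracranial difference was called with adjusted p = 0.0494.

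Of 30 dense-core granule and exocytosis genes, 18 fell against brain in each of the Myc, extracranial and graft tumors, and 1, Sytl4, rose in Myc tumors. Among all genes 26.8%, 26.1% and 30.4% fell in these groups, and 25.3% rose in Myc tumors. Sytl4 was chosen after its value was seen. The list's median log2 difference was -2.98, -2.65 and -2.86. Ptprn2, a granule membrane protein also known as phogrin, fell from 106 ± 15.0 CPM in brain to 1.08 ± 0.921 in Myc, 0.111 ± 0.134 in extracranial and 0.0289 ± 0.0277 in graft tumors (edgeR adjusted p = 3.5e-05, 6e-06 and 7e-06). Rph3a, a Rab3 effector, fell from 116 ± 9.95 to 0.535 ± 0.262, 0.130 ± 0.200 and 0.0393 ± 0.0343 CPM, and Resp18, a luminal granule protein, from 43.95 ± 16.2 to 0.528 ± 0.341, 0.00487 ± 0.00973 and 0.0190 ± 0.00886 CPM. Stx1a, a fusion protein of the plasma membrane, fell in all 4 tumor groups and kept more of its level, from 115 ± 9.92 CPM in brain to 12.8 ± 1.11 in Myc, 13.2 ± 7.15 in extracranial, 6.41 ± 0.824 in graft and 21.8 ± 9.93 in SHH tumors (edgeR adjusted p = 1.8e-05, 1.7e-05, 6e-06 and 0.0083).

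Vgf, a granin-like precursor, was not called against brain in Myc, extracranial or graft tumors. It stood at 90.85, 38.9 and 61.2 CPM in brain, 76.3, 6.73, 66.8 and 7.13 CPM in the Myc tumors, 82.7, 118.7, 1.22 and 9.35 CPM in the extracranial tumors and 20.2, 18.35 and 33.75 CPM in the grafts. Its log2 difference from brain was -0.70 ± 1.14 in Myc, -0.26 ± 1.15 in extracranial and -1.40 ± 1.25 in graft tumors (edgeR adjusted p = 0.626, 0.863 and 0.355). Every graft lay below every brain, and with a fit of the compared groups only the graft difference was called (adjusted p = 0.0133).

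Of 43 peptide precursors tested (60 of 61 listed were found), 9 rose and 13 fell in Myc tumors against brain, 7 rose and 14 fell in extracranial tumors, and none rose and 21 fell in grafts. Among all genes 25.3%, 26.1% and 24.9% rose and 26.8%, 26.1% and 30.4% fell in these groups. In grafts 0 rose at an adjusted p under 0.05 with edgeR, and the list's median log2 difference was -3.89 beside -0.16 for all genes. Sst, somatostatin, fell from 63.5 ± 13.9 CPM in brain to 0.689 ± 0.839 in Myc, 0.342 ± 0.421 in extracranial and 0.00962 ± 0.00924 in graft tumors (edgeR adjusted p = 0.000989, 0.000481 and 0.000167). Pdyn, prodynorphin, fell from 14.3 ± 1.94 CPM in brain to 0.164 ± 0.2445 in extracranial and 0.0978 ± 0.0925 in graft tumors (edgeR adjusted p = 0.000434 and 0.00053).

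Penk, proenkephalin, was singled out after its values were seen because of its level in the Myc tumors. It stood at 14.6 to 28.1 CPM in brain, 7.78 to 16.5 CPM in SHH tumors and 2293, 218, 728.5 and 315 CPM in Myc CNS tumors 1 to 4, so that every Myc tumor lay above every brain and SHH tumor. Extracranial tumor 2 held 557 CPM and the other extracranial tumors 1.37 to 6.36 CPM, and the grafts 2.22, 3.83 and 38.7 CPM. Calca averaged 3.41 ± 3.38 CPM in brain and 268 ± 514 in Myc tumors, and its call (edgeR adjusted p = 0.0452) ended without Myc CNS tumor 3 (adjusted p = 0.424) and without Healthy brain 1, 2 or 3 (adjusted p = 0.0721, 0.128 and 0.13). It also ended with every gene with a count, with the compared groups only and with the replicate block (edgeR adjusted p = 0.078, 0.0775 and 0.201). Without both libraries with pituitary transcripts the call of Calca ended as well (edgeR adjusted p = 0.06). Pomc fell in extracranial and graft tumors only through Healthy brain 1, which held 142.6 CPM against 0.796 and 0.764 CPM in the other brains (edgeR adjusted p = 0.0163 and 0.0317, and 0.804 and 0.908 without that library).

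**Figure D5:**
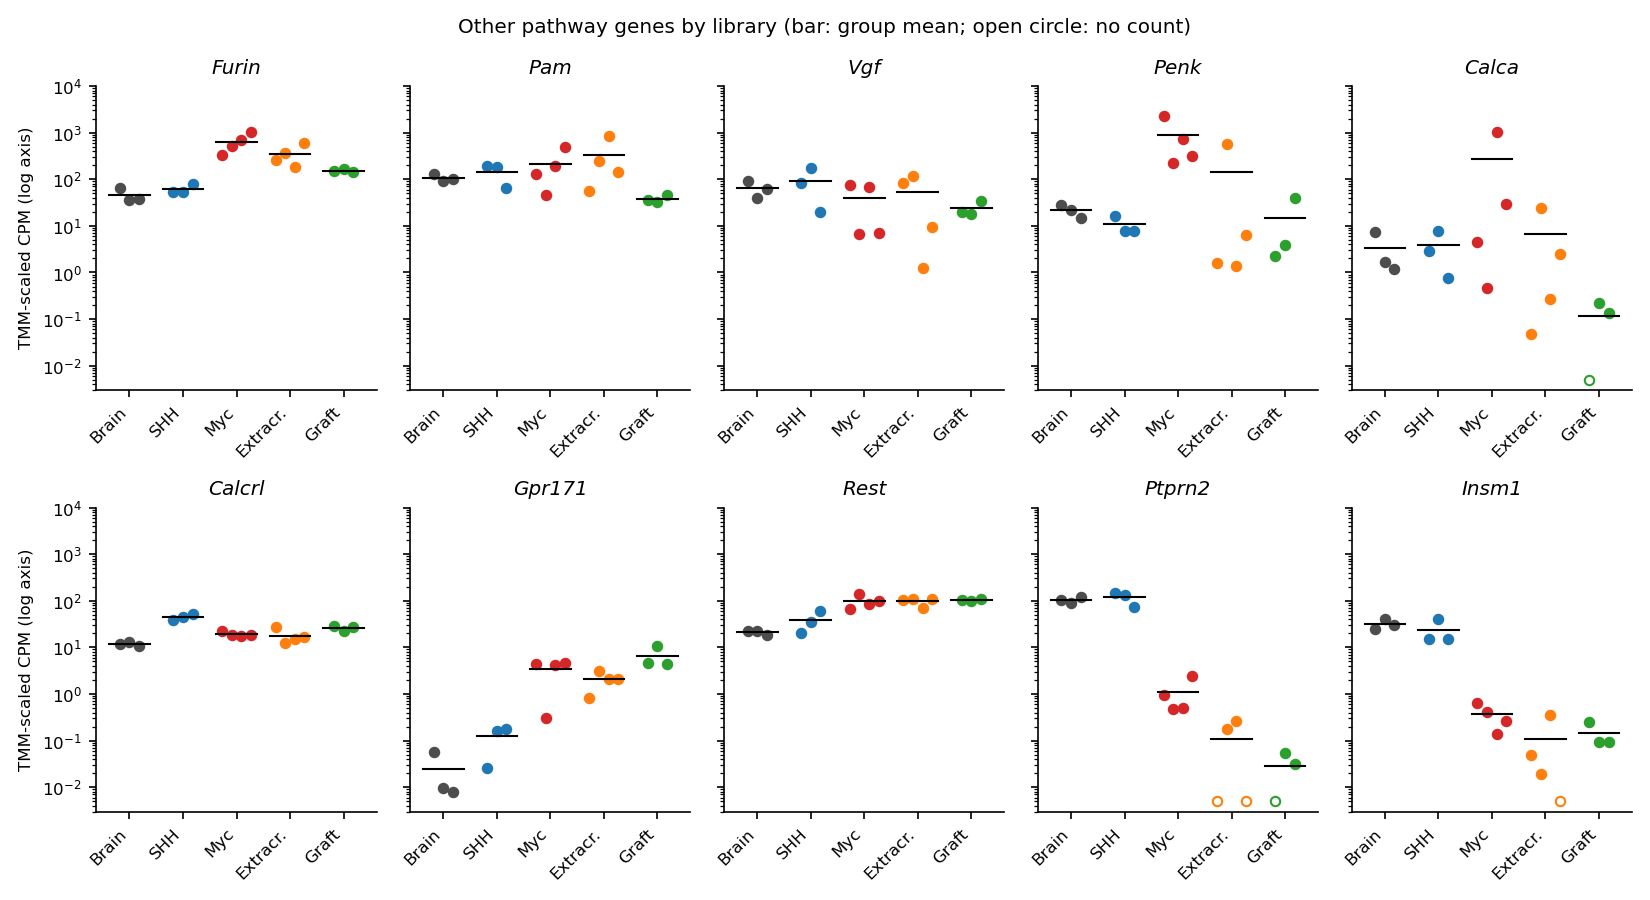
TMM-scaled CPM (log axis) of 10 pathway genes that are not members, in each of the 17 libraries by group, with a bar at the group mean and open circles at the foot of a panel for libraries without a count. Furin and Rest were higher than brain in every Myc, extracranial and graft tumor, Ptprn2 and Insm1 were lower in every one of them, and Penk and Calca were scattered.

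Of 7 receptor genes for the peptides of Calcb and Pcsk1n, 3 rose in Myc, 2 in extracranial, 2 in graft and 1 in SHH tumors against brain, and 1, Calcr, fell in grafts. The shares of all genes that rose were 25.3%, 26.1%, 24.9% and 2.44%, and 30.4% fell in grafts. Gpr171, a receptor of a peptide cut from proSAAS, rose from 0.0244 ± 0.0270 CPM in brain to 3.38 ± 2.06 in Myc, 2.05 ± 0.9445 in extracranial and 6.57 ± 3.50 in graft tumors (edgeR adjusted p = 0.00022, 0.000376 and 0.000106), with no overlap. Gpr171 is also known in lymphocytes. Calcrl, the receptor part shared by CGRP and adrenomedullin, rose most in SHH tumors, from 11.6 ± 1.15 to 44.97 ± 6.17 CPM (edgeR adjusted p = 0.00425), and in grafts to 26.1 ± 3.56 CPM (adjusted p = 0.00224). Its differences in Myc and extracranial tumors, 0.72 ± 0.25 and 0.63 ± 0.25, were called with adjusted p = 0.0279 and 0.0495, and 3 and 5 of the single libraries, when left out, ended these calls (adjusted p up to 0.098 without Healthy brain 3 in Myc, and up to 0.176 without extracranial tumor 1). The extracranial call also ended with RLE factors, limma voom and the compared groups only (adjusted p = 0.087, 0.0632 and 0.15). It ended too with every gene with a count and with the replicate block (edgeR adjusted p = 0.156 and 0.076). The Myc call ended with every gene with a count (edgeR adjusted p = 0.0809). Without both libraries with pituitary transcripts both calls ended (edgeR adjusted p = 0.109 in Myc and 0.115 in extracranial tumors). Ramp1, which turns Calcrl into a CGRP receptor, was not called in any of the 4 comparisons with brain (edgeR adjusted p = 0.0804 in Myc tumors, the lowest). Every Myc, extracranial and graft library of Ramp1 lay below every brain. Its difference from brain in Myc tumors was called with DESeq2, limma voom and a fit of the compared groups only (adjusted p = 0.0363, 0.0325 and 0.0316), and that in grafts with the last 2 of these (adjusted p = 0.007 and 0.00567). Ramp3 rose in Myc tumors to 135 ± 124 CPM from 5.92 ± 0.472 (edgeR adjusted p = 0.0111, and 0.058 without the 2 libraries with pituitary transcripts). Gpr83, another proSAAS peptide receptor, was not called with edgeR in any comparison. With limma voom and a fit of the compared groups only, its difference from brain was called in Myc tumors (adjusted p = 0.0393 and 0.0415) and in grafts (adjusted p = 0.00617 and 0.0291). DESeq2 called Gpr83 in Myc against SHH, extracranial against Myc and graft against extracranial tumors (adjusted p = 0.0318, 0.0172 and 0.0102).

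Of 20 neuroendocrine transcription factors and Rest complex genes, 3 rose and 13 fell against brain in Myc and in extracranial tumors, and 3 rose and 15 fell in grafts. Among all genes 25.3%, 26.1% and 24.9% rose and 26.8%, 26.1% and 30.4% fell in Myc, extracranial and graft tumors. The list's median log2 difference was -4.91, -5.72 and -8.48. Rest, the repressor of neuronal genes, stood at 18.4 to 22.45 CPM in brain, 65.0 to 136 in Myc, 69.8 to 108 in extracranial and 100.6 to 110.2 in graft tumors, and at 20.1, 35.75 and 60.1 CPM in SHH CNS tumor 1 to 3. Rest rose by 2.20 ± 0.33, 2.21 ± 0.34 and 2.33 ± 0.35 (edgeR adjusted p = 0.000135, 0.000123 and 0.000104), and by 0.88 ± 0.33 in SHH tumors, which was not called (adjusted p = 0.142), but was called without SHH CNS tumor 1 (adjusted p = 0.0425) and with limma voom (adjusted p = 0.00374). The others that rose in all 3 groups were its partner Rcor1 and Hand2, a factor of sympathetic neurons, both singled out after their values were seen.

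Insm1, which turns on granule genes, fell from 31.9 ± 7.95 CPM in brain to 0.3705 ± 0.222 in Myc, 0.107 ± 0.169 in extracranial and 0.146 ± 0.0925 in graft tumors (edgeR adjusted p = 0.000118, 3.6e-05 and 0.000104), and it averaged 23.7 ± 15.1 CPM in SHH tumors. Neurod1, Myt1, Myt1l and Prox1 fell in all 3 groups too.

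Between the tumor groups outside SHH fewer pathway genes were called. For extracranial against Myc tumors 0 of 121 were called with edgeR and 0 with limma voom, beside 19 with DESeq2, and 40 had an unadjusted edgeR p under 0.05 (33.1%, against 15.8% of all genes). The smallest edgeR adjusted p was 0.0771, and 4 of all genes were called, all lower (0.0186%). Between 1 and 2 pathway genes were called when Myc CNS tumor 1, 2 or 3 or extracranial tumor 2 was left out.

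For grafts against Myc tumors 21 pathway genes were lower and none was higher (6.0% of all genes were called, 3.12% higher and 2.88% lower). They were 10 of 43 precursors, 4 of 30 granule genes, 4 of 20 transcription factors, 2 of 21 enzymes and 1 of 7 receptors. Nppc, the precursor of C-type natriuretic peptide, averaged 0.438 ± 0.363 CPM in grafts and 16.0 ± 11.9 in Myc tumors (edgeR adjusted p = 0.017). Furin was lower by 2.06 ± 0.43 (adjusted p = 0.0199) and Ptprn2 by 5.03 ± 0.996 (adjusted p = 0.0168), both on the log2 scale. No pathway gene was called without Syngeneic graft 1 or without graft 2, and 1 without graft 3, and the calls of these 3 genes ended in each case (adjusted p = 0.053 to 0.0921). Without the 2 libraries with pituitary transcripts 12 were called, 11 lower and 1 higher.

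For grafts against extracranial tumors 1 pathway gene was higher, Ctsb, and 11 were lower (4.78% of all genes were called, 2.16% higher and 2.62% lower). Pthlh, parathyroid hormone-like hormone, averaged 0.0426 ± 0.0180 CPM in grafts and 38.6 ± 37.1 in extracranial tumors (edgeR adjusted p = 0.0171), and Npy, neuropeptide Y, 0.0401 ± 0.0472 and 144 ± 244 CPM (adjusted p = 0.0311). Ctsb was higher by 1.34 ± 0.34 (adjusted p = 0.0427). No pathway gene was called without graft 1, 2 or 3 (adjusted p for these 3 genes 0.0662 to 0.135), and 4 were called without extracranial tumor 2 and 18 without extracranial tumor 1. The call of Ctsb also ended without extracranial tumor 2, 3 or 4 (adjusted p = 0.0701, 0.0656 and 0.0717).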

How the data were processed

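Polyadenylated RNA was sequenced from 17 samples with a stranded TruSeq kit, per the labels' protocols. The authors deposited raw read counts per gene, 1 file a sample. STAR 2.5.3a and the build mm10 are named per the submitters' processing notes. The counting tool, its strand setting, its annotation and its handling of shared reads are not given in the sources used here. Near-identical or overlapping genes, such as Calca and Calcb, therefore have uncertain counts. The labels give the tumors as separate tumors and the brains as biological replicates.

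Of 50600 gene IDs, 45737 matched GENCODE vM21 with their version and 50376 without it. edgeR 4.0.16 (R 4.3.3) kept 21494 genes (filterByExpr, minimum count 10), holding 99.96% of the counts. TMM factors scaled the libraries, 1 quasi-likelihood model without covariates was fitted to all 5 groups, and p-values were adjusted by Benjamini-Hochberg over all kept genes, with a threshold of 0.05. The fit was tested on simulated counts with the same spread for every gene and few changed genes. That setting differs from these data, so it does not bear on the calls here. Levels per kilobase use the union of a gene's exons. Likeness and the spread within groups used log2 CPM with a prior count of 2. Alternatives were RLE factors, no filter or a minimum count of 50, DESeq2 1.42.0, limma 3.58.1 (voom), a replicate block, fits of the compared groups alone, and leaving out libraries. A comparison within the libraries of 1 series of file numbers was added after seeing the data.

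The members and the gene lists were chosen with earlier results of these data known. The named genes are the members, up to 5 called genes of smallest adjusted p per list and comparison, a fixed set (among it Furin, Pam, Vgf, Calca, Calcrl, Ramp1, Gpr171, Gpr83, Insm1, Rest, Pomc, Gh and Smarcb1), marker genes given beside a result, and the 5 genes nearest to Pcsk1n and Calcb. Protein sequences were not used here. Results of some genes are not reported here.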

Additional observations from a re-analysis of the deposited data

Results flagged for a closer look

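In groups of 4 libraries, a value was picked out where its gap to the nearest other library was larger, as a share of the group's range, than Dixon's critical value. This was met in 12 of 48 groups. Chance gives about 1 in 20 for independent groups of normally distributed values, but CPM are skewed, Calca and Calcb may share reads and the members were chosen on these values, so the count is a description. Myc CNS tumor 3 stood above its group for Calcb with 869.5 CPM and for Calca with 1039 CPM. Extracranial tumor 2 stood above its group for Scg2 with 28.78 CPM, for Scg5 with 1.207 CPM and for Calca with 23.96 CPM. Scg3 was high in extracranial tumor 4 with 3.535 CPM. Extracranial tumor 3 was high for Insm1 with 0.358 CPM and low for Rest with 69.78 CPM. Gpr171 was low in Myc CNS tumor 2 with 0.3129 CPM, and Gpr83 was high in Myc CNS tumor 4 with 1.719 CPM. Myc CNS tumor 1, which held pituitary transcripts, was high for Pomc with 64.29 CPM and for Gh with 71.4 CPM.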

How the results depend on the processing

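Total counts of called genes in the Myc, extracranial and graft comparisons with brain and in Myc against SHH tumors stayed within 1.5 times their value under every alternative run. Leaving out 1 library gave 56 to 67, 57 to 69, 60 to 65 and 42 to 54 pathway genes there. The number of pathway genes that rose moved more: from 21 to as few as 12 in Myc and from 18 to 11 in extracranial tumors without Healthy brain 3, from 9 to 18 in grafts with voom, and from 21 to 11 in Myc against SHH tumors with every gene with a count or without SHH CNS tumor 3. For SHH tumors against brain (940 of all genes, 4 pathway genes) the count over all genes was 585 with every gene with a count, 2875 with DESeq2, 7498 with voom and 402 without both libraries with pituitary transcripts. The pathway count was 17 with DESeq2 and 49 with voom. Leaving out 1 library gave 62 to 821 and 2 to 5. For extracranial against Myc tumors (4 and 0) the count over all genes was 10 with RLE factors, 1249 with DESeq2, 13 without both pituitary libraries and 0 with voom, with the compared groups only and within the last series of file numbers. DESeq2 called 19 pathway genes. Leaving out 1 library gave 0 to 94 and 0 to 2. For grafts against Myc tumors (1290 and 21) it was 809 with every gene, 3753 with DESeq2 and 4030 with voom, and the pathway count was 51 with DESeq2, 40 with voom and 12 without both pituitary libraries. Leaving out 1 library gave 58 to 1256 and 0 to 27. For grafts against extracranial tumors (1028 and 12) it was 514 with every gene, 3733 with DESeq2, 2850 with voom and 110 with the compared groups only, and the pathway count was 6, 34 with DESeq2 and 1 with the compared groups only. Leaving out 1 library gave 56 to 1970 and 0 to 18. Under voom Ramp1 in SHH tumors against brain turned from 0.297 to -2.33 and Smarcb1 in Myc against SHH tumors from -0.422 to 1.364. The cause was not tested.

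Samples of 1 number did not pair: correlations of their deviations were -0.18 to 0.083, and only in grafts against extracranial tumors did each of the 3 numbers match best with its own (0.0431 to 0.0733). With the replicate block the counts were 0 of all genes for extracranial against Myc tumors, 578 and 8 pathway genes for grafts against Myc tumors, and 430 and 5 for grafts against extracranial tumors. The log2 difference of Scg3 from brain was then -6.61 in Myc and -9.95 in extracranial tumors. For Scg3 it was -6.54 in Myc against SHH tumors, -4.79 in grafts against Myc tumors and -1.45 in grafts against extracranial tumors.

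Of the members' log2 differences, 532 of 550 moved by less than the spread, as defined above, when 1 library was left out. Scg5 in grafts against extracranial tumors turned from -0.77 to 0.32 without extracranial tumor 2, and Scg2 in extracranial against Myc tumors from 0.26 to -1.74. Chga in extracranial tumors against brain was -9.34 with voom. Scg3 in extracranial against Myc tumors was -3.06, -5.57 without extracranial tumor 4 and 0.02 within the last series of file numbers. Calcb in the same comparison turned from -6.27 to 1.52 within that series. With exon lengths of the longest transcript 3, 2, 2 and 3 members changed rank in brain, SHH, Myc and extracranial tumors. Pcsk1n in extracranial tumors and Scg2, Scg3 and Pcsk2 in grafts rest on few counts, which limits the precision of their differences.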
